A study of Rattus norvegicus with 24 samples.

Results

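Hif1a encodes the oxygen-regulated subunit of hypoxia-inducible factor 1, and it was measured here together with 8 of the factor's established target genes, Vegfa, Adm, Slc2a1, Hk2, Pgk1, Ldha, Bnip3 and Egln3. The members were the probe sets whose single gene symbol in the array annotation was one of these names. They came to 13 probe sets for 9 genes, out of 15923 probe sets for 10411 named genes on the array. The study followed normal ageing in tissues of male Sprague-Dawley rats that received no treatment, at 4, 10, 18 and 24 months. The groups used here were liver, kidney, bone, spleen lymphocyte, pituitary and hypothalamus at each of the 4 ages, 24 arrays in all, and the adrenal gland was not analysed here. Every array carried RNA pooled from 10 rats, the same 10 rats gave all tissues of an age, and each tissue and age had 1 array. The question put to these values was where Hif1a and its targets are expressed, whether they move with age, and whether the targets follow the Hif1a signal.

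Hypoxia-inducible factor 1 is a dimer of an alpha subunit and the stable subunit Arnt. When oxygen is plentiful, prolyl hydroxylases such as Egln3 mark the alpha subunit, and the Vhl ligase complex sends it for degradation, so its amount is set largely at the protein level and only in part by its mRNA. When oxygen is low, the dimer binds short hypoxia response elements and raises genes for vessel growth, glucose uptake, glycolysis and mitophagy. An array signal for Hif1a is a level of mRNA, and protein was not measured.

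The core of a hypoxia response element is ACGTG or GCGTG, which on the opposite strand reads CACGT or CACGC. RefSeq promoter windows on the GRCr8 rat assembly were at hand for 8 of the 9 members, with 2 for Vegfa and none for Pgk1, and the 250 bases before the start were searched on both strands. Of these 9 windows, 4 held a match, namely those of Hif1a, Slc2a1, Ldha and Bnip3, and 36.7% of the 33469 windows of all genes held at least 1. The windows of Vegfa, Adm, Egln3 and Hk2 held none, which says only that these letters are not in these 250 bases. In the values that follow, Slc2a1, Ldha and Bnip3 differed among tissues, and so did Vegfa and Egln3, whose windows held no match, and 88.7% of all genes tested. The 3 windows below belong to the 3 targets with matches. They are at chr5:138002272-138002521 on the plus strand for Slc2a1, chr1:106507842-106508091 on the plus strand for Ldha and chr1:203154963-203155212 on the minus strand for Bnip3, each 5′ to 3′ and ending next to the start of the gene, with matches in capitals.
Slc2a1: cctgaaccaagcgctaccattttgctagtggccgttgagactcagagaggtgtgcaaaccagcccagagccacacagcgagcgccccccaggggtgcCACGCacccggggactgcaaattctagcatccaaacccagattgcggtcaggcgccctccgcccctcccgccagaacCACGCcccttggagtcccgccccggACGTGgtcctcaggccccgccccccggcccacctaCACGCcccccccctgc
Ldha: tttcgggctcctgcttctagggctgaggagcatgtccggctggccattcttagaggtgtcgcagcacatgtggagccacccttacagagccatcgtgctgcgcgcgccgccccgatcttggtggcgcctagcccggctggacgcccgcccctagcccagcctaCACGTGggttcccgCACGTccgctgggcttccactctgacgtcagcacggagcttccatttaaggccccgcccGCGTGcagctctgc
Bnip3: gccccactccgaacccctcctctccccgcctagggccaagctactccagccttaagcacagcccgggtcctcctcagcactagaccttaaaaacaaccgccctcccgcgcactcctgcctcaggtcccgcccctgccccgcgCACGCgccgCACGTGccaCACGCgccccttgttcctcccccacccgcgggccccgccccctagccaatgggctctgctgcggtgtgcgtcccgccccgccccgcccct
Each of the 3 windows held 4 matches, and a CACGTG counts as 1 match on each strand, as in Ldha and in Bnip3. In Slc2a1 the matches began 153, 76, 51 and 16 bases before the start, in Ldha 87, 86, 73 and 14 bases, and in Bnip3 108, 99, 98 and 90 bases. A match describes the letters and not a bound site.

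The values are linear MAS5.0 signals in arbitrary units. The probe set with the most arrays at or over 100 represented its gene, signals under this floor were set to it before taking log2, and a gene was tested if it reached the floor on at least 4 arrays, which held for 9682 genes and for all 9 members. Levels are compared between tissues and ages for 1 gene at a time, since signals of different probe sets are not on a common scale. The labels fit the markers: of the markers on the array, 6 of 6 for hypothalamus, 7 of 7 for pituitary, 5 of 6 for spleen lymphocyte, 7 of 7 for liver, 6 of 6 for kidney and 5 of 6 for bone were highest in their labelled tissue, the exceptions being Cd79b and Alpl. Bone also carried skeletal muscle markers, with a summed signal of 3412 to 11779 against 525 to 2654 elsewhere and 9 of 11 past the floor at 4 months and 11 of 11 at the later ages. Erythroid markers summed to 39716 to 65585 in bone and 16815 to 32044 in spleen lymphocyte, against 3194 to 15683 in the other tissues, and neutrophil markers to 40246 to 105470 in bone and 1534 to 13130.5 in spleen lymphocyte, against at most 228 elsewhere. In bulk tissue, fewer cells of a type and less RNA per cell cannot be told apart. Some arrays stood apart. The 10-month hypothalamus array had a summed liver marker signal of 12941, against 1392 to 2734 at the other ages of that tissue, its deviations from the tissue and age means correlated with those of the 18-month kidney array at 0.45 over 9682 genes, and the 18-month bone array had a 5th percentile of signal of 33.5, against 9.13 to 15.7 on the other arrays. The Hif1a ranges, the tissue differences, the slopes on Hif1a and the bone slopes of Egln3 and Hk2 are also given without some of these arrays. The age slopes in hypothalamus, and those of Lox, Plod2 and P4ha1 in bone, are given with them only.

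Hif1a itself was highest in spleen lymphocyte and lowest in liver by mean log2 signal. Its 4 arrays spread more widely in hypothalamus and kidney than in the other tissues. The highest signals of these 2 tissues came from the 10-month hypothalamus and 18-month kidney arrays, which stood apart. Without them the signals ran from 1155 to 1999 in hypothalamus and from 1242 to 1859 in kidney. Its signal at 4, 10, 18 and 24 months was 4197, 2637, 2421 and 2510.1 in spleen lymphocyte. In liver it was 1189.9, 939.7, 1016 and 1034. All liver values lay below, and all spleen lymphocyte values above, every value of pituitary or bone. Pituitary gave 2374, 2269, 2138 and 1787, and bone gave 1649, 1737, 1323 and 1345. The hypothalamus and kidney values spread over those of pituitary and bone, at 1875, 2706, 1155 and 1999 in hypothalamus and 1583, 1242, 2949 and 1859 in kidney. The 10-month hypothalamus and 18-month kidney signals were also above those of spleen lymphocyte at 10, 18 and 24 months. The 18-month hypothalamus signal was below that of liver at 4 months. In the order of mean log2 signal, spleen lymphocyte (11.48 ± 0.37, SD, n = 4 ages), pituitary (11.06 ± 0.18), hypothalamus (10.85 ± 0.51), kidney (10.82 ± 0.53), bone (10.55 ± 0.20) and liver (10.02 ± 0.14), pituitary, hypothalamus, kidney and bone overlapped in a chain, and spleen lymphocyte and liver did not overlap with their neighbours. Against the mean of the other 5 tissues, Hif1a was higher in spleen lymphocyte by 0.82 ± 0.19 on the log2 scale (SE, limma adjusted p = 0.00085) and lower in liver at -0.93 ± 0.19 (limma adjusted p = 0.000265), while the differences in the remaining tissues lay between -0.30 and 0.31 and did not pass. A second Hif1a probe set was dim, at 14.8 to 218, and reached the floor on 6 arrays only.

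**Figure D1:**
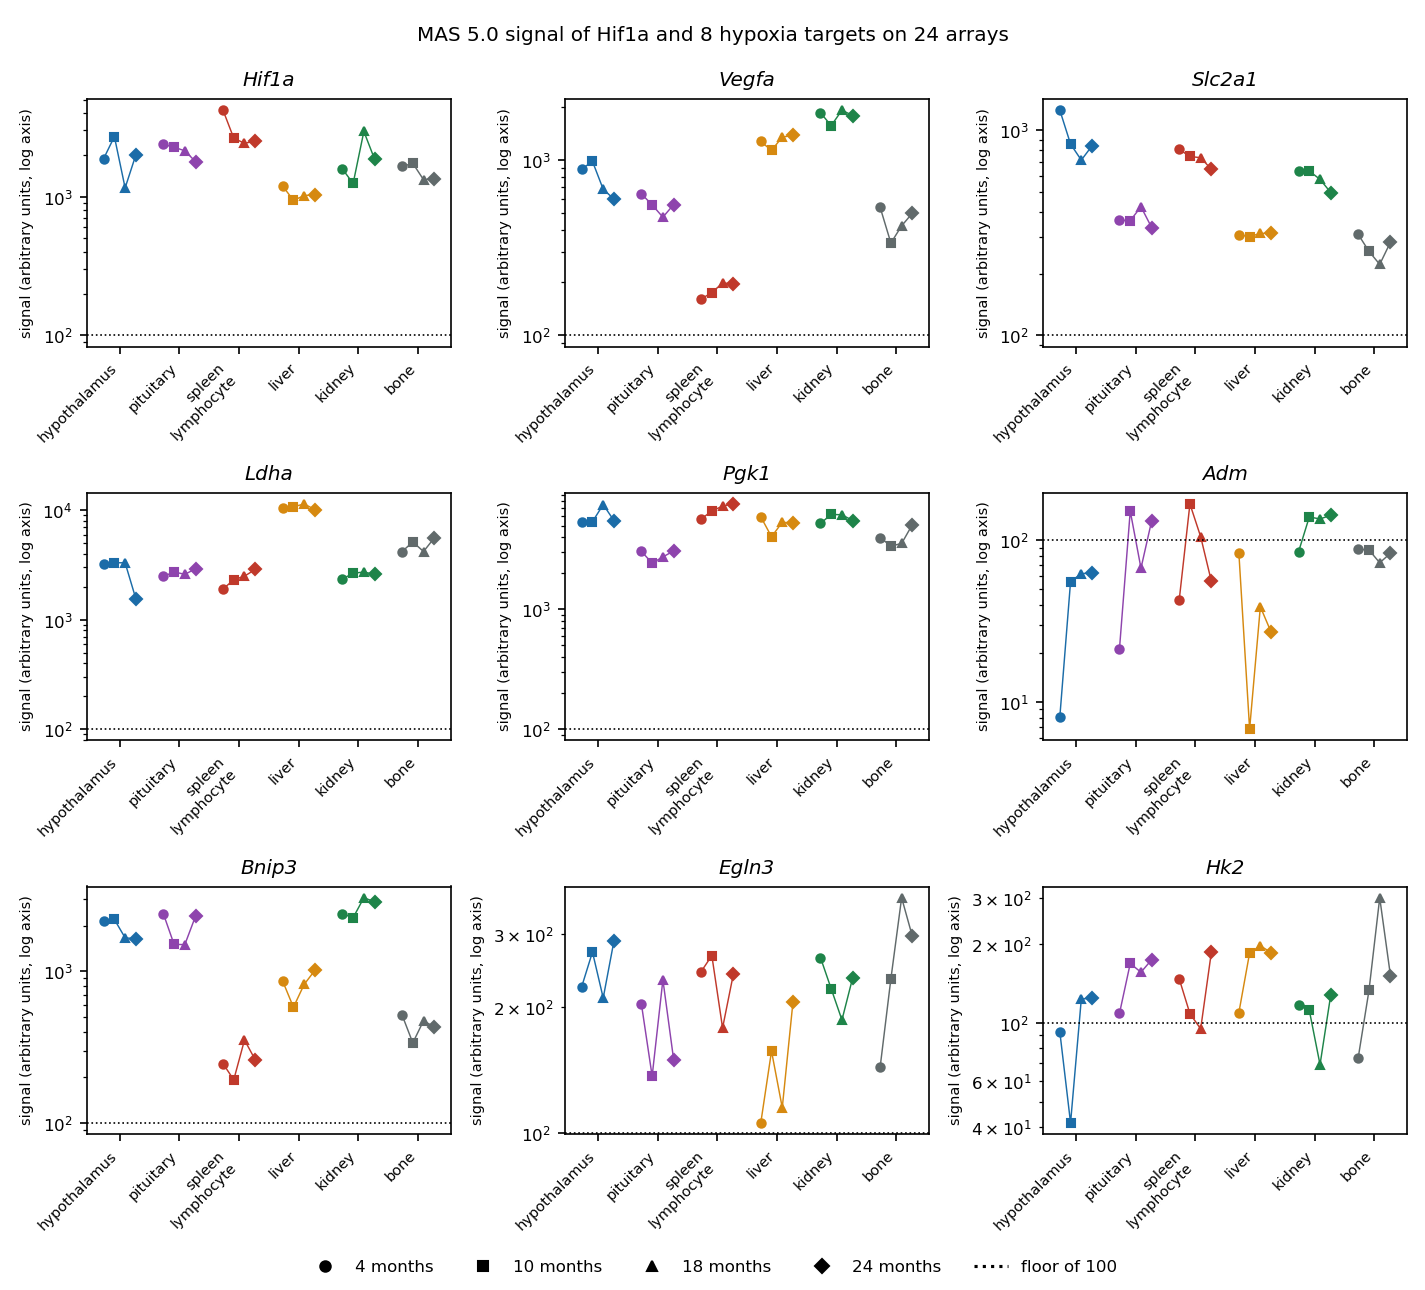
Signal of the chosen probe set of each of the 9 genes on the 24 arrays (vertical log axis in arbitrary units, tissues on the horizontal axis, marker shape for age, each point 1 array of RNA from 10 rats, dotted line at the floor of 100). Vegfa and Bnip3 were low in spleen lymphocyte and high in kidney, Ldha was above 5587 in liver only, and most Adm points lie under the floor.

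Among the targets that act on vessels, Vegfa, the main growth factor for endothelium, had clear tissue levels and Adm, which encodes the vasodilator peptide adrenomedullin, was near the limit of measurement. Vegfa gave 1859, 1569, 1923 and 1790.3 in kidney at the 4 ages and 1274, 1134, 1349.5 and 1380.3 in liver. The kidney values lay above all liver values, and these above all others. Hypothalamus followed with 886, 981, 680.4 and 598, overlapping pituitary at 641, 554, 472 and 556, which overlapped bone at 536, 336, 421 and 497. Spleen lymphocyte was lowest, at 161, 175, 198 and 197, under every other array. The log2 difference from the other tissues was 1.73 ± 0.13 in kidney, 1.16 ± 0.13 in liver, -2.21 ± 0.13 in spleen lymphocyte and -0.68 ± 0.13 in bone, all past the threshold (limma adjusted p of 0.000165 at most), and it was 0.29 in hypothalamus and -0.29 in pituitary, which did not pass. A second, dim probe set of Vegfa was past the floor on all liver and kidney arrays, at 132 to 236, and on 2 of the other 16, in pituitary and bone. Markers of endothelium, the cells that respond to Vegfa, summed to 4935 to 7267 in kidney, 3040.0 to 4995 in bone, 2214 to 2551 in hypothalamus, 1955 to 2686 in pituitary, 1821 to 2744 in spleen lymphocyte and 1780 to 1937 in liver. Kdr, a Vegfa receptor in the vascular list below, ran otherwise. Its differences were 1.62 in liver, 0.42 in kidney, -0.30 in bone, which did not pass, and -2.20 in hypothalamus. The part of endothelium in the Vegfa levels was not tested.

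Adm reached the floor on 7 of 24 arrays, with a highest signal of 167 in spleen lymphocyte at 10 months. Its kidney values were 84.8, 139, 135 and 143, its pituitary values 21.4, 151, 67.1 and 132, and no value of hypothalamus, liver or bone reached 100. The tissue difference of Adm did not pass (limma adjusted p = 0.12), and at these signals a difference would be hard to detect.

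The 4 members of glucose metabolism did not share a tissue. Slc2a1, the glucose transporter of the blood-brain barrier, was highest in hypothalamus with 1252, 856, 714 and 839 at the 4 ages. It overlapped there with spleen lymphocyte at 806, 744, 734 and 644. Kidney came next with 633, 632, 576 and 496. Pituitary (335 to 423), liver (303 to 314) and bone (222 to 310.1) were lower and under every kidney value. All 6 tissue differences of Slc2a1 passed, higher in hypothalamus (1.09 ± 0.11), spleen lymphocyte (0.74) and kidney (0.35) and lower in pituitary (-0.44), liver (-0.74) and bone (-1.0), with limma adjusted p of 0.014 at most.

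Ldha, the lactate dehydrogenase subunit that turns pyruvate into lactate, was highest in liver, where Hif1a was lowest. Its liver signals were 10422, 10755, 11416 and 10139, and no other array exceeded 5587. Bone was second, at 4189, 5136, 4195 and 5587. Pituitary (2486 to 2914), kidney (2355 to 2727), spleen lymphocyte (1905 to 2874) and hypothalamus (1551 to 3314) overlapped with one another. Against the other tissues Ldha was higher in liver by 1.87 ± 0.15 and in bone by 0.47 ± 0.15, and lower in the other 4 at -0.49 to -0.73, all with a limma adjusted p of 0.0136 at most.

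Pgk1, the first step of glycolysis that yields ATP, differed less. Its spleen lymphocyte signals were 5691, 6646, 7303 and 7611, and its pituitary signals of 3057, 2436, 2747 and 3078 were under those of every other tissue. The 4 remaining tissues overlapped in a chain, from hypothalamus (5379.6 to 7519) and kidney (5236 to 6221) through liver (4050.1 to 5949) to bone (3384 to 5119). The differences that passed were 0.58 ± 0.12 in spleen lymphocyte, 0.34 in hypothalamus, 0.30 in kidney, -0.35 in bone and -0.94 in pituitary (limma adjusted p of 0.0418 at most). A second probe set of Pgk1 gave another order, with means of 3584 in kidney, 3379 in hypothalamus, 3299 in bone, 2336 in liver, 2233 in spleen lymphocyte and 2003 in pituitary, so that the high spleen lymphocyte level rests on 1 probe set and the low pituitary level was seen with both. The last probe set was at most 118. Hk2, a hexokinase of muscle and fat that starts glycolysis, was dim, with 41.5 to 299.7 over all arrays and 19 arrays past the floor, and its tissue difference did not pass (limma adjusted p = 0.14).

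Bnip3, a mitochondrial protein that promotes mitophagy, had tissue differences as wide as those of Vegfa. Kidney gave 2397, 2259, 3058 and 2878 at the 4 ages, above all other arrays of tissues except for pituitary at 4 and 24 months. Hypothalamus (2154, 2200.0, 1664 and 1640.4) and pituitary (2403, 1507, 1501 and 2313) overlapped. Liver followed with 862, 579.7, 819.9 and 1016, and bone (515, 337, 472 and 429) and spleen lymphocyte (246, 192, 352 and 261) were lowest and overlapped with each other. Bnip3 was higher in kidney by 1.72 ± 0.15, in hypothalamus by 1.16 and in pituitary by 1.15, and lower in spleen lymphocyte at -2.30 ± 0.15 and in bone at -1.40 (limma adjusted p of 1.62e-06 at most), and its liver difference of -0.33 did not pass.

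Egln3, one of the oxygen-sensing hydroxylases and a target of the factor it restrains, was present at low signals of 106 to 366, with overlap between all neighbours in the order of tissues. Only its lower level in liver passed, with 106, 157, 115 and 206 and a difference of -0.66 ± 0.20 (limma adjusted p = 0.00573). In bone it read 144, 234, 366 and 295, its widest spread over the ages.

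Over the members, 7 of 9 differed among the 6 tissues, all but Adm and Hk2, beside 88.7% of all genes tested, so that a tissue difference is what most genes on the array show. Set against the other tissues, 4 members were called in hypothalamus (57.6% of all genes), 4 in pituitary (53.0%), 6 in spleen lymphocyte (62.6%), 5 in liver (62.4%), 5 in kidney (54.1%) and 5 in bone (53.8%). Out of 9 members, these counts are near the share of the array in each of the 6 tissues. The directions were mixed within each tissue, with 4 higher and 1 lower in kidney, 3 higher and 1 lower in hypothalamus, 1 and 4 in bone, 1 and 3 in pituitary, 2 and 3 in liver and 3 and 3 in spleen lymphocyte. In kidney Vegfa, Slc2a1, Pgk1 and Bnip3 were higher while Hif1a did not differ (0.03 ± 0.19). In spleen lymphocyte, where Hif1a was highest, Slc2a1 and Pgk1 were higher and Vegfa, Ldha and Bnip3 lower. In liver, where it was lowest, Vegfa and Ldha were higher and Slc2a1 and Egln3 lower. With all arrays 29 of the 54 tissue differences passed, and 27 did without the 10-month hypothalamus and 18-month kidney arrays. There Slc2a1 in kidney (0.32, limma adjusted p = 0.058), Pgk1 in kidney (0.29, limma adjusted p = 0.11) and Pgk1 in hypothalamus (0.33, limma adjusted p = 0.062) no longer passed, while Hif1a in pituitary did, at 0.41 (limma adjusted p = 0.019). Pgk1 in kidney fell short in 9 of 22 other settings, among them the one without the 4-month and 18-month bone arrays, and the higher level of Slc2a1 in kidney in 5.

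**Figure D2:**
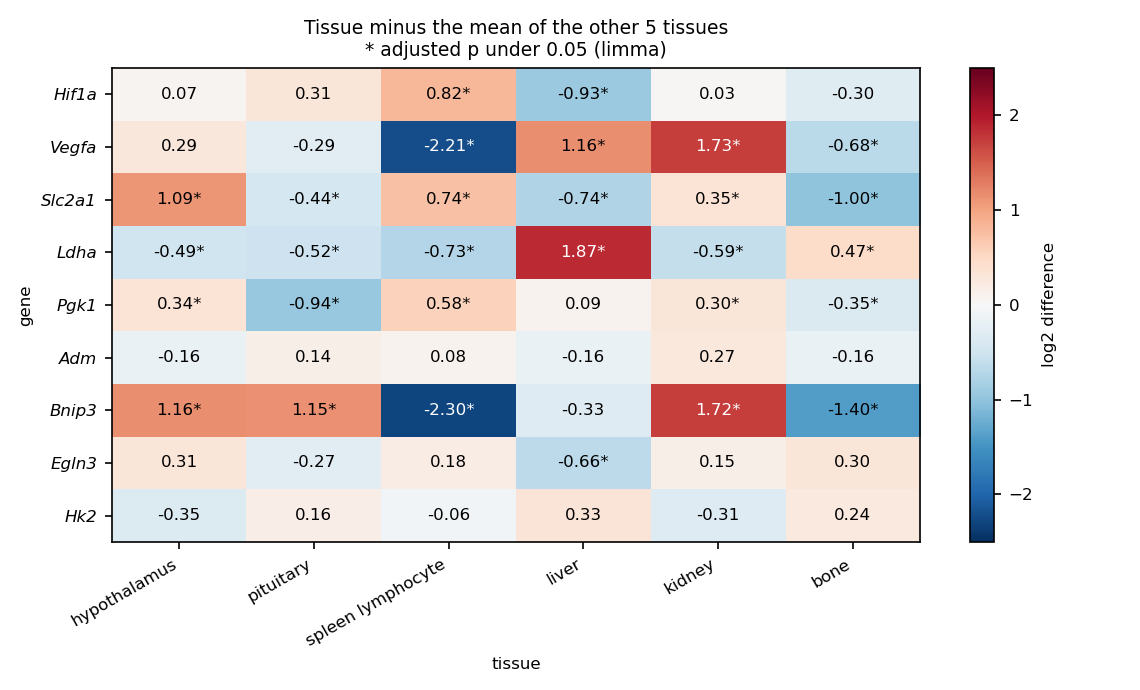
Log2 difference of each tissue (columns) from the mean of the other 5 tissues for the 9 genes (rows), from limma over 24 arrays, with an asterisk at an adjusted p under 0.05 and the colour scale running from lower (blue) to higher (red). The 29 asterisks fall in both directions in every tissue, and the row of Hif1a has 2, higher in spleen lymphocyte (0.82) and lower in liver (-0.93).

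Age moved the members little in comparison. With tissue in the model, 0 of 9 members passed in limma for 10 minus 4, 18 minus 10, 24 minus 18 or 24 minus 4 months, and 0% of all genes did in each of the 4 contrasts. At an unadjusted p under 0.05 there were 2 members for 10 minus 4 months (Adm 0.30 and Bnip3 -0.38), 0 for each of the middle contrasts and 1 for 24 minus 4 months (Hk2 0.47), beside 494, 259, 283 and 581 of 9682 genes. The fitted difference of Hif1a between 24 and 4 months was -0.22 over all tissues. A slope on age within each tissue, given as the fitted change from 4 to 24 months, called 0 of 54 member slopes in limma and 4 at an unadjusted p under 0.05. The share of all genes called was 2.40% in hypothalamus, 0% in pituitary, 0.300% in spleen lymphocyte, 0.269% in liver, 0% in kidney and 2.85% in bone. A test of whether the slopes of a gene differ among tissues called 1.11% of all genes and 0 of 9 members, also at an unadjusted p under 0.05.

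The member slopes with an unadjusted p under 0.05 were in hypothalamus and bone. In hypothalamus Ldha had a slope of -0.92 ± 0.30, Vegfa -0.67 ± 0.29 and Slc2a1 -0.59 ± 0.27, and none passed after adjustment (limma adjusted p of 0.15, 0.31 and 0.35). The Ldha value rests on its 24-month signal of 1551, after 3237, 3314 and 3308 at the earlier ages, while Vegfa was lower at both later ages than at both earlier ones. In bone Egln3 had a slope of 1.12 ± 0.41 (limma adjusted p = 0.18), from 144 at 4 months to 366 and 295 at 18 and 24 months. The Ldha slope passed when the 18-month arrays were left out (-1.15, limma adjusted p = 0.0475), and that of Hk2 in bone did when the 24-month arrays were (2.30, limma adjusted p = 0.0243), from signals of 73.6, 133 and 299.7. Without the 4-month and 18-month bone arrays the bone slopes were 0.48 ± 0.62 for Egln3 and 0.27 ± 0.56 for Hk2. In the 4 bone arrays, from 4 to 24 months, the summed skeletal muscle markers were 3412, 11518, 11779 and 7819, the neutrophil markers 40246, 71698, 80670.1 and 105470, and the erythroid markers 39716, 53129, 56099 and 65585, and their part in the Egln3 and Hk2 values was not tested. The slope of Hif1a ran from -0.68 in spleen lymphocyte to 0.63 in kidney.

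Between consecutive ages of a tissue, 4 of 162 member comparisons changed at least 2-fold with both signals past the floor. With 1 array per tissue and age these are differences between pairs of arrays, with no test. Hif1a fell by 1.23 on the log2 scale in hypothalamus from 10 to 18 months and rose by 1.25 in kidney over the same months, Ldha fell by 1.09 in hypothalamus from 18 to 24 months, and Hk2 was higher by 1.17 in bone at 18 than at 10 months. The same rule called 3.13% of all gene and phase pairs in hypothalamus, 1.37% in pituitary, 2.10% in spleen lymphocyte, 2.43% in liver, 2.60% in kidney and 6.98% in bone. Both Hif1a changes involve an array named above as standing apart, and without it no step over those months is left to compare. The Hk2 change rests on the 18-month bone array, where other dim probe sets were high too, the second one of Vegfa at 174 against 37.8 to 50.6 at the other ages of bone and that of Hif1a at 52.6 against 16.0 to 28.5. On the 10-month hypothalamus array the log2 ratio of the 3′ to the 5′ Actb probe set, a sign of RNA degradation, was 3.09, against 1.10 to 1.89 at the other ages. It was 1.93 on the 18-month kidney array, against 1.40 to 1.76, and 3.74 on the 4-month spleen lymphocyte array, against 1.88 to 2.63. In 4 of the 6 tissues, these 3 and liver, the array with the highest ratio also had the highest Hif1a signal, and in pituitary and bone it did not. Over the 24 arrays, the deviation of Hif1a from its tissue and age means correlated with that ratio at 0.43, where the median of all genes was -0.04, and with the Gapdh ratio at 0.12. The part of RNA quality in the Hif1a changes was not tested.

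Where Hif1a moved 2-fold between ages, the targets did not move 2-fold with it. In hypothalamus, as Hif1a went from 2706 to 1155, Vegfa went from 981 to 680.4, Bnip3 from 2200.0 to 1664, Slc2a1 from 856 to 714, Egln3 from 271 to 211, Ldha from 3314 to 3308 and Pgk1 from 5411 to 7519, and Adm and Hk2 were under the floor at 10 months. In kidney, as Hif1a went from 1242 to 2949, Bnip3 went from 2259 to 3058, Vegfa from 1569 to 1923, Ldha from 2654 to 2727, Pgk1 from 6221 to 6181, Slc2a1 from 632 to 576, Egln3 from 221 to 187, Adm from 139 to 135 and Hk2 from 112 to 69.2. Vegfa and Bnip3 took the direction of Hif1a in both tissues, Slc2a1 and Egln3 in hypothalamus but not in kidney, all by less than the 2-fold limit, and Ldha changed by under 0.04 on the log2 scale in either.

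Whether targets follow Hif1a within tissues was asked of all arrays at once, with the log2 Hif1a signal as a further term beside tissue and age. The slope of a target on it is the log2 change of the target per log2 unit of Hif1a. In limma, 0 of 8 targets passed, and 0 did at an unadjusted p under 0.05. Bnip3 had a slope of 0.18 (95% confidence interval -0.21 to 0.57), Vegfa 0.10 (-0.25 to 0.44) and Slc2a1 0.03 (-0.27 to 0.33). For Ldha it was -0.14 (-0.54 to 0.27), for Pgk1 -0.19 (-0.50 to 0.12) and for Hk2 -0.16 (-0.66 to 0.34). Adm and Egln3 were both at 0.00, with intervals of -0.31 to 0.32 and -0.52 to 0.52. Every interval includes 0 and lies below a slope of 1, at which a target would change as much as Hif1a. For Adm this decides little, since it reached the floor on 7 arrays only. Its values were set to the floor on all hypothalamus, liver and bone arrays, where it could not follow Hif1a. Hk2 reached the floor on 19 arrays and was set to it on the rest. Error in the Hif1a signal was not modelled, and the intervals do not include it. Random error in that signal draws a slope toward 0, so the intervals cannot decide whether a target changes as much as Hif1a. The limma adjusted p-values were 0.63 or higher. Of all other genes tested, 6 of 9681 passed (0.0620%), 4 with a positive and 2 with a negative slope, and 1279 had an unadjusted p under 0.05. The median slope was 0.00 for the 8 targets and -0.04 for all genes, and 5 of 8 targets had a slope above 0, beside 43.3% of all genes. With the Actb ratio as a further term 0 of 8 targets passed as well. Without the 10-month hypothalamus and 18-month kidney arrays 0 of 8 passed in limma and 2 had an unadjusted p under 0.05, both with negative slopes (Ldha -0.64 ± 0.30 and Pgk1 -0.57 ± 0.23), and the slopes of Vegfa and Bnip3 turned to -0.39 ± 0.23 and -0.26 ± 0.28. The number of targets with a slope above 0 was 3 of 8 there and ran from 1 of 8 (without hypothalamus) to 7 of 8 (median centring).

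**Figure D3:**
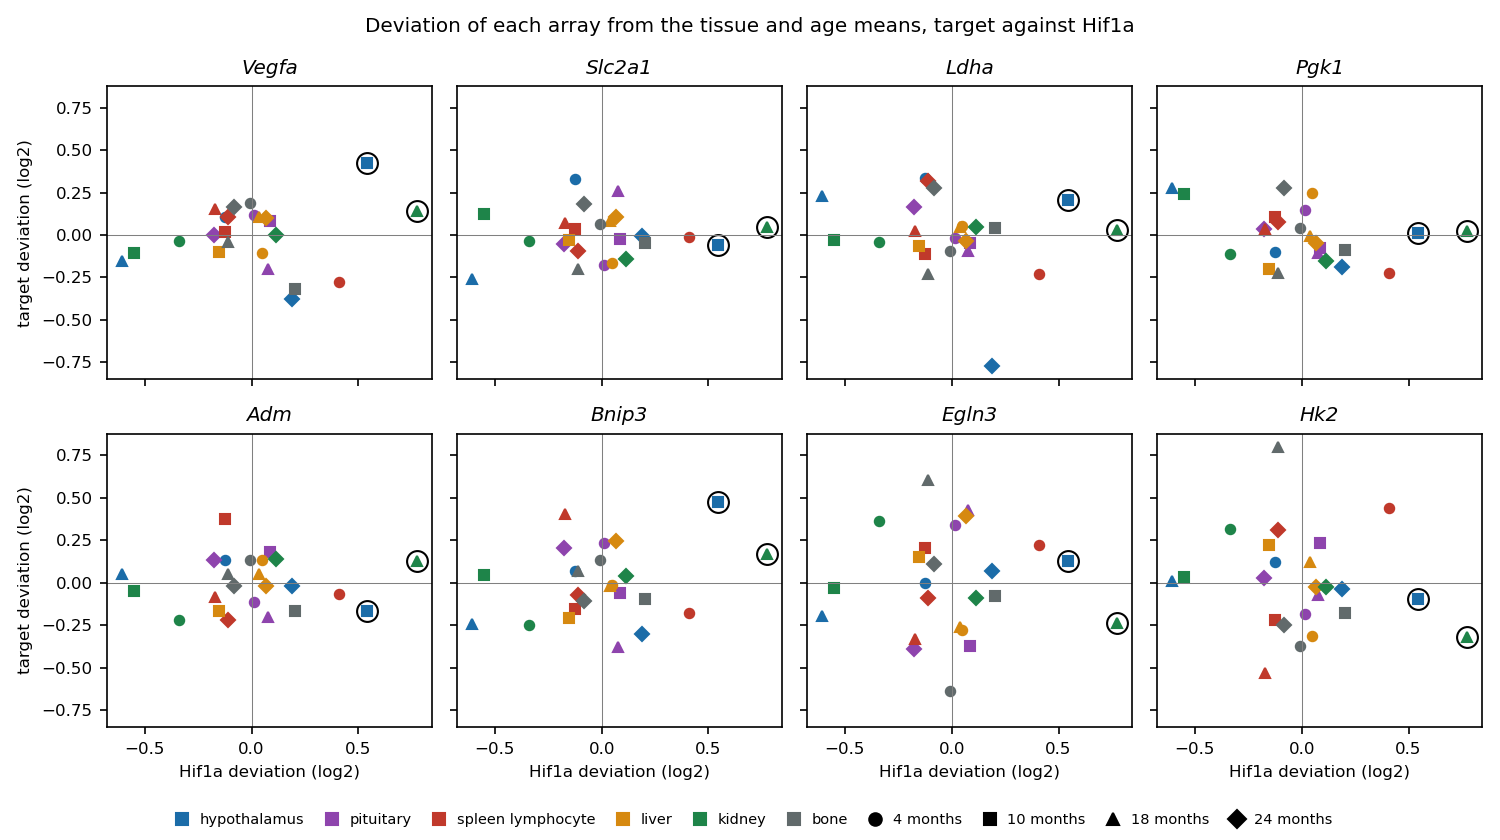
Deviation of each of the 24 arrays from the tissue and age means on the log2 scale, for each target (vertical) against Hif1a (horizontal), with colour for tissue, shape for age and rings around the 10-month hypothalamus and 18-month kidney arrays. The 18-month kidney array lies farthest from 0 for Hif1a, at 0.77, and the points of no target form a line.

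**Figure D4:**
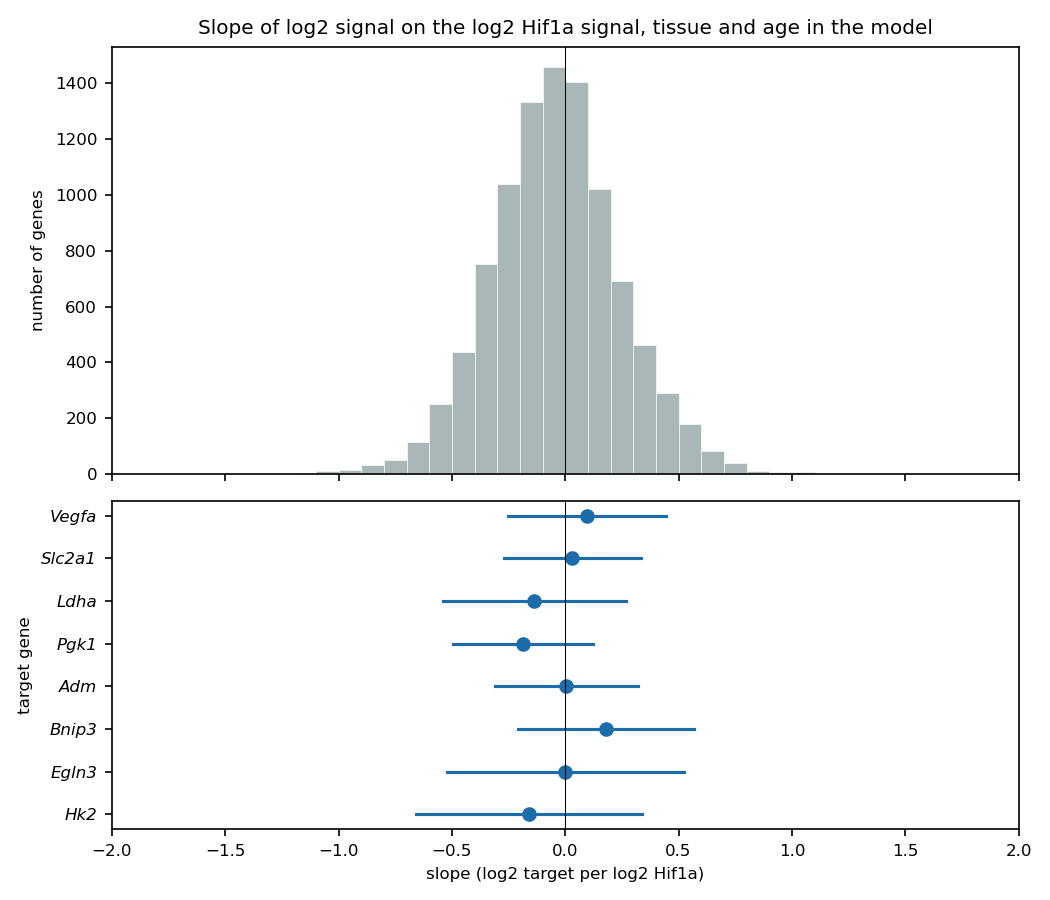
Upper panel, number of genes by slope of the log2 signal on the log2 Hif1a signal with tissue and age in the model (9681 genes, bins of 0.1). Lower panel, slope (point) and 95% confidence interval (line) of the 8 targets on the same axis, all including 0.

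Across tissues the targets did not line up with Hif1a either. Over the 6 tissue means, which come from pools of the same rats at each age, Pearson's r with Hif1a was -0.90 for Ldha, -0.66 for Vegfa, -0.49 for Hk2, -0.15 for Bnip3, 0.14 for Pgk1, 0.54 for Egln3, 0.56 for Adm and 0.62 for Slc2a1. The median over the targets was 0.00 and that over all genes 0.10. Liver and spleen lymphocyte lie farthest from the middle for Hif1a, and without both the values were -0.85 for Ldha, 0.19 for Vegfa, -0.21 for Hk2, 0.79 for Bnip3, -0.31 for Pgk1, -0.80 for Egln3, 0.53 for Adm and 0.36 for Slc2a1. The sign therefore turned for Vegfa, Bnip3, Pgk1 and Egln3. For Adm the means of hypothalamus, liver and bone were all at the floor, so both of its values rest on tied points and decide little. From one age to the next within a tissue, a target changed in the direction of Hif1a in 7 (Pgk1) to 12 (Slc2a1) of 18 steps.

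The genes whose log2 signal was most like that of Hif1a over the 24 arrays were Chd2 (r = 0.88), Slc25a36 (0.87), Brox (0.85), Vhl (0.84) and Zc3h15 (0.83), and none of them is a target among the members. By the deviations from tissue and age means they were Rybp (0.89), Zbtb18 (0.88), Ppp2r2b (0.88), Gpbp1 (0.87) and Wsb1 (0.86). These were ranked out of 9681 genes, and the arrays share tissues, rats and, in the deviations, the 2 arrays ringed in the plot of deviations.

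Genes of the wider pathway were set beside the members in 4 lists, which contain the members. Of 15 tested subunits and oxygen-sensing regulators, 13 differed among tissues, near the 88.7% of all genes. Epas1, the alpha subunit of hypoxia-inducible factor 2, had a signal of 99.3 to 157 in spleen lymphocyte and 1936 to 2752 in liver, the reverse of Hif1a, and its differences were -3.88 in spleen lymphocyte, 1.27 in liver, 1.17 in kidney, 1.11 in hypothalamus and 0.72 in pituitary. Arnt, the shared partner, was dim, at 19.5 to 285, and did not pass in any tissue. Arnt2, the partner best known from neurons, read 689 to 1051 in hypothalamus and 441 to 650.1 in pituitary. Vhl was higher in spleen lymphocyte (0.71) and lower in liver (-0.96), the 2 tissues where Hif1a also passed and in the same directions.

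Of 18 glucose uptake and glycolysis genes, 13 were higher and 3 lower in hypothalamus, with a median difference of 0.75 beside -0.13 for all genes, and 2 were higher and 11 lower in liver, with a median of -0.67 beside -0.23. The 2 that were higher in liver were Ldha and Pdk1. In hypothalamus the brain isoform aldolase C, Aldoc, reached 8503 to 12255, against 944 to 1336 in pituitary and at most 76.1 in the other tissues, and Pfkp, a platelet and brain phosphofructokinase, was higher by 1.85. Hk1, the hexokinase of most tissues, was lower in liver at -2.42. Markers of astrocytes, the brain cells in which Aldoc is abundant, summed to 21629 to 26396 in hypothalamus and at most 7372 elsewhere, and their part in the Aldoc level was not tested. In kidney 7 of the 18 were higher and 5 lower, in spleen lymphocyte 3 and 9, in pituitary 5 and 6 and in bone 8 and 7. Of all genes tested, 57.6% were called in hypothalamus, 62.4% in liver and 54.1% in kidney, in either direction. The share was 62.6% in spleen lymphocyte, 53.0% in pituitary and 53.8% in bone. In bone the glucose transporter Slc2a3 (1.66) and the regulatory enzyme Pfkfb4 (1.62) had the largest differences in the positive direction. Bone was also the tissue with the highest muscle, erythroid and neutrophil marker sums, as given above. The part of these cells in the Slc2a3 and Pfkfb4 levels was not tested.

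**Figure D5:**
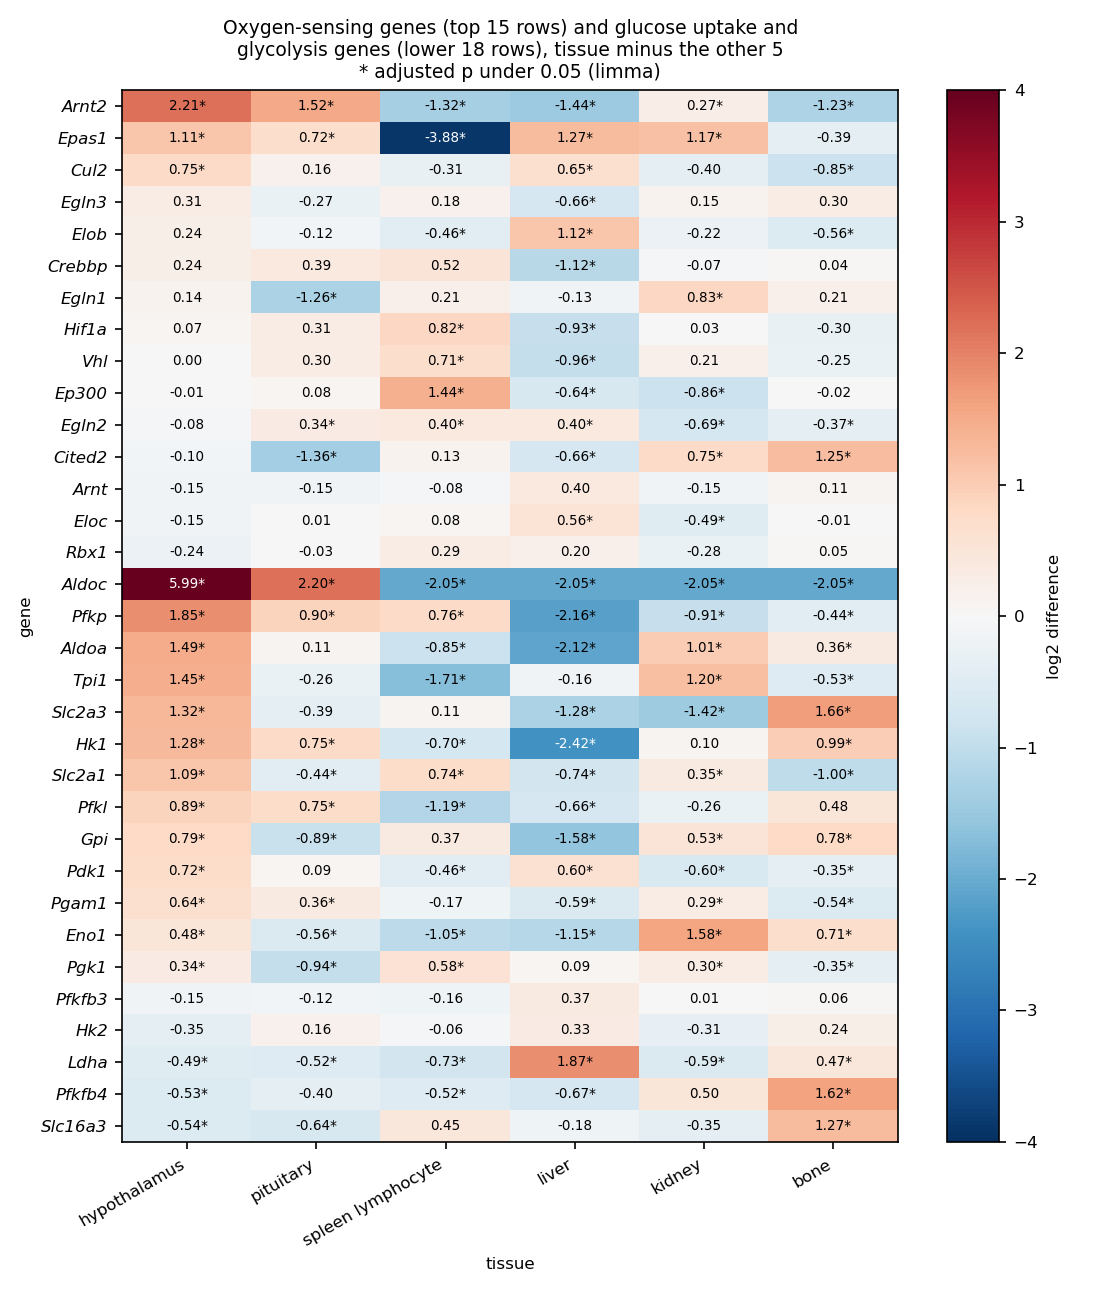
Log2 difference of each tissue (columns) from the mean of the other 5 for 15 subunits and oxygen-sensing regulators (top rows) and 18 glucose uptake and glycolysis genes (lower rows), each block ordered by hypothalamus, with an asterisk at a limma adjusted p under 0.05. Most of the lower block is red in hypothalamus and blue in liver. Ldha, Hk2 and Pfkfb3 run the other way, and of these only Ldha has an asterisk in both tissues.

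Of 14 vascular, blood and secreted targets, 7 were higher and 2 lower in kidney as well as in liver. Among all genes tested, 54.1% were called in kidney and 62.4% in liver, in either direction. The list medians were 0.34 in kidney and 0.43 in liver, beside -0.14 and -0.23 for all genes. Igfbp1, a binding protein for insulin-like growth factors, read 1073 to 2534 in liver, 648 to 1013 in kidney and at most 134 elsewhere. Igfbp3 was higher in kidney by 2.84. Cxcr4, a chemokine receptor of lymphocytes, read 17178 to 20800.2 in spleen lymphocyte and 2312 to 3739 in bone. Of 20 mitophagy, growth, matrix and feedback targets all 20 differed among tissues, beside 88.7% of all genes, with Errfi1, a feedback inhibitor of the EGF receptor, highest in liver (4.34), Fos in spleen lymphocyte (5.05) and Ndrg1 in kidney (3.66).

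With age, 4 genes of the lists passed in limma, all falling. In bone the collagen-modifying enzymes Lox, Plod2 and P4ha1 had slopes of -3.57 ± 0.58, -2.50 ± 0.32 and -2.04 ± 0.42 (limma adjusted p = 0.00271, 0.000354 and 0.0132). In the same arrays the summed cartilage markers went from 24969 at 4 months to 6359, 2422 and 1133, and the summed bone markers from 91997 to 57184, 42084 and 33514, while the muscle, neutrophil and erythroid sums given above were higher at each later age than at 4 months, and the part of these cells in the slopes was not tested. In liver Igfbp1 had a slope of -1.15 ± 0.23 (limma adjusted p = 0.0378). On the Hif1a signal, 0 genes of the 4 lists passed in limma, and the list medians of that slope were 0.06 for the regulators, -0.21 for glycolysis, 0.01 for the vascular list and 0.16 for the mitophagy list, beside -0.04 for all genes.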

How the data were processed

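The samples were 24 pools of total RNA, each from 10 male Sprague-Dawley rats, and every pool was hybridised to 1 Affymetrix RAE230A array. The deposited values are linear signal intensities of probe sets, which the authors computed with MAS5.0 (version not given in the sources used here) and scaled globally to a target of 500 per array. No further normalization was applied here. Array medians ran from 213 to 309, and the number of arrays limits the precision. Detection calls were not used here.

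Gene names came from the array annotation, which gave 12783 of 15923 probe sets 1 symbol, and 10411 genes were on the array after 57 control probe sets were left out. Each gene was taken from the probe set at or over 100 on the most arrays, ties by mean signal. Values were floored at 100, and 9682 genes at or over 100 on at least 4 arrays were tested with limma 3.58.1 (R 4.3.3) on log2 values with tissue and age as factors (15 residual degrees of freedom), Benjamini-Hochberg adjustment over all genes and a threshold of 0.05. Slopes on age within tissues left 12 residual degrees of freedom and the slope on Hif1a 14. The 4 ages of a tissue stood in for replicates, so the p-values do not measure the spread between rats. Gene coordinates and promoter windows came from RefSeq tables on GRCr8, and the array's own annotation is older. Python 3.11.15 with numpy 2.4.6, pandas 2.3.3 and matplotlib 3.10.9 searched the windows and drew the plots. The fits were tested on simulated data.

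All 9 members are named in every comparison. From the wider lists, up to 4 genes with the largest change past the threshold were named, and the 5 genes most like Hif1a by each measure. Arnt, Arnt2, Vhl, Pdk1, Igfbp3 and Kdr were named after their values were seen. The members and lists were chosen with earlier results of these data known. Alternatives were other floors, probe set rules, filters, scalings, a pseudocount, array weights, and leaving out ages, tissues or single arrays. The Actb ratio as a further term was added after seeing the data.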

Additional observations from a re-analysis of the deposited data

How the results depend on the processing

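Of the tissue differences of members that passed, 597 of 638 values under other settings passed in the same direction and 41 fell short of the threshold, none reversing. The 41 were in Pgk1 (21 over 4 tissues), Ldha (13 over 5), Slc2a1 (6 over 2) and Egln3 in liver (1), while those of Hif1a, Vegfa and Bnip3 passed under every setting run. Between 20 and 33 of the tissue differences and 5 to 9 members in the overall test passed, and settings that leave out a tissue have no value for it. Of 213 other values of the target slopes on Hif1a, 185 moved by less than their standard error and 28 by more, 0 targets passed under any of the 27 alternatives, and the slope of Ldha, for example, ran from -0.64 to 0.09. The number of all genes called on Hif1a depended on the setting, with 6 in the analysis above, 0 with a pseudocount of 50 or array weights and 206 with median centring.

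For age slopes within a tissue, 1 member passed without 18 months and 1 without 24 months, Ldha in hypothalamus and Hk2 in bone, and 0 otherwise (leave-one-out range 0 to 1). The 4 2-fold changes became 15 with the mean over probe sets, 21 at 1.5-fold and 0 at 3-fold. With the mean over probe sets neither of the Hif1a changes given above was called, and Hif1a was called instead in hypothalamus from 18 to 24 months (1.59) and in spleen lymphocyte from 10 to 18 months (-1.23). Both rest on the dim second probe set, which went from 24.0 to 125 in hypothalamus and from 180 to 35.7 in spleen lymphocyte, partly under the floor. Most of the 15 were of Pgk1, whose dimmest probe set was at most 118. The Hk2 change in bone was lost with quantile normalization, median centring or a floor of 200.

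The age term in the tissue comparisons and in the slopes on Hif1a already sets tissues of the same rats against each other. The age slopes within tissues, and the test of whether they differ, had no such term, so shared rats were not modelled there. In the contrasts between ages, tissues of the same rats stood in for replicates of an age. The labels give no replicate numbers for a further block. Signals near or under 100, as for Adm and Hk2, limit what can be called, and 1 array per tissue and age leaves no estimate of the spread between rats.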

Other observations

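Over the 6 tissue means, Vegfa and Bnip3 ran with Epas1, the alpha subunit of hypoxia-inducible factor 2, which was looked at after the values above were seen. Pearson's r with Epas1 was 0.89 for Vegfa and 0.82 for Bnip3, beside -0.66 and -0.15 with Hif1a. Leaving out 1 tissue at a time gave 0.79 to 0.94 for Vegfa and 0.70 to 0.90 for Bnip3. Without bone and spleen lymphocyte, the tissues farthest from the middle for Epas1, r was 0.81 for Vegfa and -0.38 for Bnip3, so that the relation with Bnip3 rests on these tissues. The other 6 targets had r of -0.35 to 0.34 with Epas1. The values of Vegfa and Bnip3 were picked from those of all targets with Hif1a, Epas1, Arnt and Arnt2. Other high values were 0.98 for Ldha and 0.75 for Hk2 with Arnt, which was dim, and 0.78 for Bnip3 with Arnt2. The r of all genes with Epas1 was not computed, so whether these values stand out is not known. These are 6 points from pools of the same rats, given as a description with no test.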
